A study of Mus musculus with 6 samples.

Results

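The 10 genes described here, Atf4, Ddit3, Trib3, Asns, Chac1, Psat1, Phgdh, Hspa5, Xbp1 and Herpud1, belong to the ATF4 arm of the integrated stress response and to the unfolded protein response (UPR). They were picked by symbol from the 24411 genes of the count table, and 10 of 10 passed the expression filter that left 12828 genes for the test. RNA was sequenced from the whole soleus (Sol), a slow-dominant calf muscle, of 3 WT and 3 LSD1-mKO mice that had trained by voluntary wheel running (VWR). Each mouse gave 1 library, and no sedentary mice are analysed here. LSD1-mKO mice carry floxed Lsd1 alleles and a transgene in which the human ACTA1 promoter drives CreERT2, so that tamoxifen deletes Lsd1 in differentiating and mature muscle cells. WT mice carry the floxed alleles without CreERT2. Both genotypes are labelled C57BL/6 and were single-housed with a wheel for 38 days from 8 weeks of age. Tamoxifen (75 mg/kg) was injected on 5 days, once the mice had spent 3 days getting used to the wheel. Running was recorded for 30 days after that. The mice were taken off the wheel and fasted before the tissue was collected, and the other cells of the muscle, in which Cre is not driven, remain in the RNA.

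Cells lower general protein synthesis under stress by phosphorylating the translation factor eIF2, and under this condition the transcription factor ATF4 is made in larger amounts and switches on genes for amino acid synthesis and uptake, tRNA charging and, in prolonged stress, growth arrest and cell death. Unfolded proteins in the endoplasmic reticulum (ER) engage this arm through the kinase PERK. In parallel, IRE1 splices Xbp1 mRNA and ATF6 is cut from the membrane, and both raise ER chaperones and the machinery that degrades misfolded proteins. Much of this control acts on ATF4 translation, Xbp1 splicing and ATF6 cleavage, none of which is seen in gene-level counts of poly(A) RNA. In skeletal muscle these genes are known to respond to exercise, fasting and mitochondrial disturbance.

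Promoter sequence upstream of the start site, taken from RefSeq on GRCm38.p6, is shown for the 4 genes that hold a known stress response element there, since these are the elements through which ATF4, ATF6 and XBP1 are known to act on stress genes. Each line runs 5′ to 3′ along the gene and ends at the base before the RefSeq start, with the matches in capitals. The region is chr6:7693210-7693359 for Asns (minus strand), chr2:119351032-119351241 for Chac1 (plus strand), chr2:34771940-34772089 for Hspa5 (plus strand) and chr8:94386279-94386428 for Herpud1 (plus strand).
Asns: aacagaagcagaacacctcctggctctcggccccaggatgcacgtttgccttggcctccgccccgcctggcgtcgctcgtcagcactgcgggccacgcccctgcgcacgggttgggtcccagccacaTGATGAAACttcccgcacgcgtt
Chac1: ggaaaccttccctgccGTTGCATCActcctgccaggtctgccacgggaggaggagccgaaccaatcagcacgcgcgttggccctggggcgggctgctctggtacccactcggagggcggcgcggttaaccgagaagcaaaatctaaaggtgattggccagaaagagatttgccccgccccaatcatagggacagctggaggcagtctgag
Hspa5: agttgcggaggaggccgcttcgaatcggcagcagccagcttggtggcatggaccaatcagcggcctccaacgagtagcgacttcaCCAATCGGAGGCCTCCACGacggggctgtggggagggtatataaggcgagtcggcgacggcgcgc
Herpud1: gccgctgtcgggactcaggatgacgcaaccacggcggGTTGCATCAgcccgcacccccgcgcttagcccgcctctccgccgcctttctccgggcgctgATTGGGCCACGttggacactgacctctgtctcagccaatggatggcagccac

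The C/EBP-ATF response element, through which ATF4 and its C/EBP partners act, was searched as TGATGNAAN on both strands in windows from 250 bases before to 50 bases after the start. It matched in 4 of the 10 genes: in Asns at 23 to 15 bases before the start, in Chac1 on the opposite strand at 194 to 186 bases before it, in Herpud1 on the opposite strand at 113 to 105 bases before it, and in Trib3 on the opposite strand just after the start. Of 32851 windows of all genes, 3.95% held it. The ER stress response element, CCAAT and CCACG with 9 bases between them, matched in Hspa5 at 65 to 47 bases before the start, and 0.119% of all windows held it. Its second form, ATTGGNCCACG, matched in Herpud1 at 52 to 42 bases before the start and in 0.0365% of all windows. No pair of these matches overlapped. The XBP1 element TGACGTGG matched in none of the 10 genes and in 0.676% of all windows. Among the 16 genes of a list of ER chaperones and foldases with a window, 6 held the ER stress response element, and among 20 genes of amino acid handling and tRNA charging with a window, 8 held the C/EBP-ATF element and 0 the ER stress response element. These matches describe the sequence and are not measured binding sites. GENCODE places the start of Asns, Hspa5 and Chac1 farther upstream than RefSeq, so the end of each of these printed stretches lies inside the gene limits given below, with the element of Asns and that of Hspa5. For Trib3 GENCODE places the start farther downstream than RefSeq, so its element, at chr2:152344039-152344047, lies before the GENCODE start and outside those limits.

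Each library held between 8940206 and 13798059 estimated counts. Levels are given as counts per 1000000 after TMM scaling (CPM), which corrects for library size and composition. Kdm1a, which encodes LSD1, was at 33.6 to 40.5 CPM in WT and 14.6 to 16.6 CPM in LSD1-mKO, or 42.6% of WT on average (log2 fold change -1.23 ± 0.11 SE, adjusted p = 0.016 by edgeR's quasi-likelihood test with Benjamini-Hochberg adjustment). This call is lost when WT replicate 2 or any of the 3 LSD1-mKO mice is left out. Over all 12828 genes tested, that test called 1 gene higher, Esr1, and 1 lower, Kdm1a, or 0.0156%. The paper lists the transgene, which only LSD1-mKO mice carry, as ACTA1-cre/Esr1. Whether its reads were counted under Esr1 was not tested, so loss of LSD1 and the transgene cannot be told apart for this gene. The summed CPM of fibroblast markers ran from 943 to 3054 in WT and from 1096 to 2033 in LSD1-mKO, that of immune markers from 24.0 to 103 and from 29.1 to 67.3, and WT replicate 1 was lowest of the 6 mice for both. Muscle fiber markers summed to 78077 to 105147 CPM in WT and 82488 to 92093 CPM in LSD1-mKO. No marker list separated the genotypes. No marker was at 0 in all libraries, and Hba-a1, of the red blood cell list, was at 0 in WT replicate 3. In whole muscle, fewer cells of a type and less RNA per cell cannot be told apart.

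Chac1 had by far the largest difference of the ATF4 and UPR genes, with an LSD1-mKO mean at 46.3% of its WT mean. For the other 9 genes the LSD1-mKO mean was between 94.1% and 119.9% of the WT mean. Of the 10 genes, 0 passed an adjusted p of 0.05 with edgeR, DESeq2 or limma voom, where edgeR called 0.0156% of all genes. At an unadjusted p under 0.05 in edgeR stood 1 of the 10, Chac1, lower in LSD1-mKO, against 6.4% of all genes tested. In 0 of the 10 genes were the groups free of overlap, against 12.7% of all genes. The fitted log2 fold change was above 0 for 5 genes and below 0 for 5, with a median of 0.003 over the 10 genes and -0.02 over all genes.

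**Figure D1:**
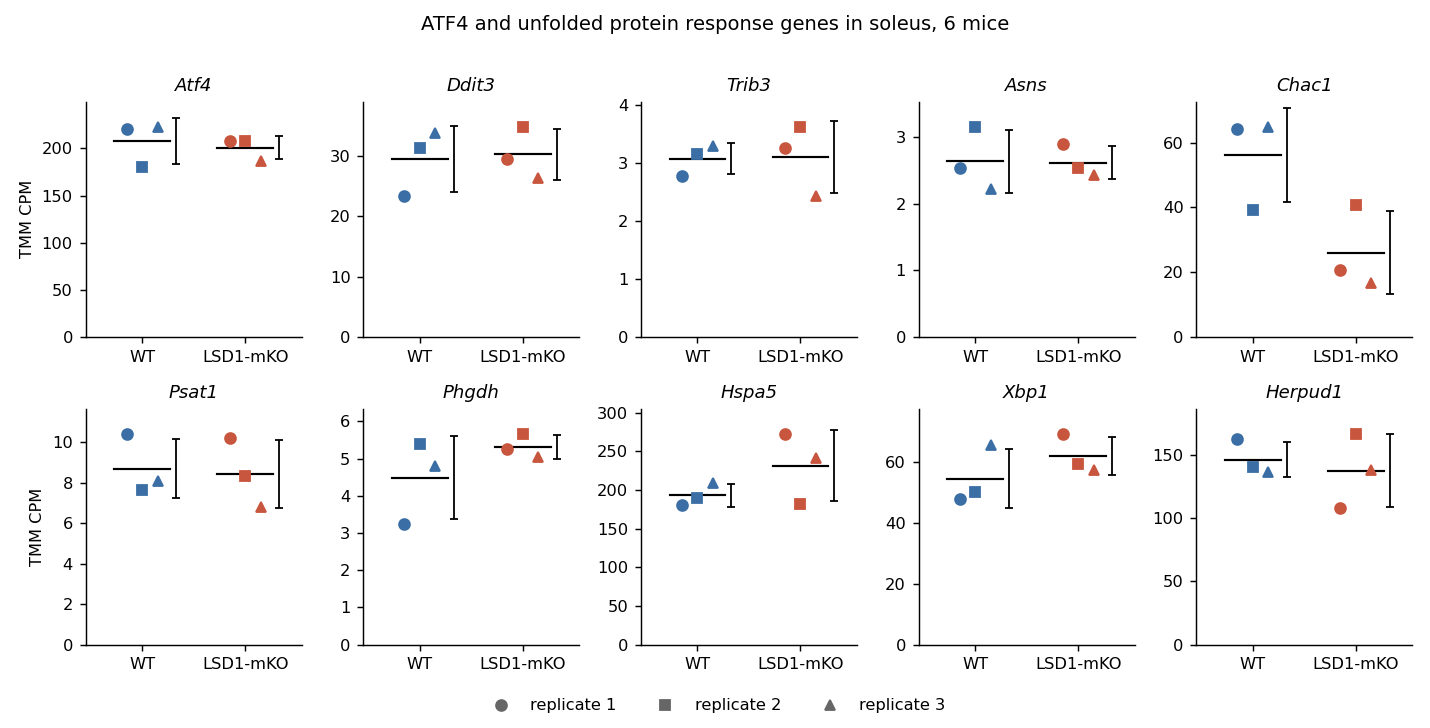
TMM CPM of each of the 10 genes (y axis, from 0) in WT (blue) and LSD1-mKO (red) mice; each symbol is 1 mouse, the line is the mean and the bar beside it the SD (n = 3). The genotypes overlap in every panel; in Chac1 only WT replicate 2 and LSD1-mKO replicate 2 meet, at 39.3 and 40.7 CPM.

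Among themselves the genes spanned a wide range of levels. Per length, as transcripts per 1000000 (TPM) computed from the longest protein-coding transcript, Atf4 was highest at 262 ± 17.6 (SD, n = 6 mice), followed by Herpud1 at 161 ± 22.2 and Hspa5 at 128 ± 22.7. Ddit3 at 74.7 ± 13.2, Xbp1 at 60.7 ± 9.26 and Chac1 at 55.3 ± 26.9 TPM formed a middle group, and Psat1 at 7.23 ± 0.987, Phgdh at 5.76 ± 1.18, Trib3 at 3.38 ± 0.529 and Asns at 2.89 ± 0.465 TPM were low. The steps from Atf4 to Herpud1, from Hspa5 to Ddit3 and from Chac1 to Psat1 were free of overlap between mice. Herpud1 and Hspa5, the 3 middle genes, and the 4 low genes each overlapped with their neighbours. The order within the middle group depends on the length used: with the union of all exons Chac1 came before Xbp1 and Ddit3 last.

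Atf4, the transcription factor that gives the arm its name, lies at chr15:80255184-80257541 (plus strand, GENCODE vM21 on GRCm38, as are the gene positions that follow). It was at 220.4, 179.8 and 223 CPM in WT replicates 1 to 3 and at 208, 208 and 187 CPM in LSD1-mKO replicates 1 to 3. WT replicate 2 was the lowest of the 6 mice, so that the LSD1-mKO values fell inside the WT range. The log2 fold change was -0.05 with a 95% interval from -0.29 to 0.20 (edgeR, adjusted p = 0.945).

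Ddit3, which encodes CHOP, the ATF4-induced factor tied to cell death in prolonged ER stress, lies at chr10:127290774-127296288 (plus strand). Its levels were 23.4, 31.3 and 33.8 CPM in WT and 29.5, 34.8 and 26.4 CPM in LSD1-mKO, and WT replicate 1 was lowest. The log2 fold change was 0.03 (interval -0.33 to 0.39). The end of Ddit3 overlaps Mars on the other strand at chr10:127296221-127296288, and reads there cannot be assigned where counting ignores strand. Trib3, a pseudokinase that CHOP and ATF4 induce, lies at chr2:152337422-152344032 (minus strand) and was low, at 2.77, 3.15 and 3.29 CPM in WT and 3.26, 3.62 and 2.42 CPM in LSD1-mKO. The log2 fold change of Trib3, 0.02, had an interval from -0.53 to 0.56, wider than that of the abundant genes.

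The 3 amino acid genes had low levels, and their groups overlapped. Asns, asparagine synthetase (chr6:7675169-7693254, minus strand), measured 2.53, 3.15 and 2.22 CPM in WT and 2.89, 2.53 and 2.42 CPM in LSD1-mKO. Phgdh (chr3:98313170-98339990, minus strand) and Psat1 (chr19:15904678-15947337, minus strand) encode the first and the second enzyme of serine synthesis from glycolysis. Phgdh measured 3.25, 5.40 and 4.80 CPM in WT and 5.25, 5.65 and 5.03 CPM in LSD1-mKO, with WT replicate 1 alone at the bottom and WT replicate 2 above 2 of the 3 LSD1-mKO mice. Psat1 measured 10.4, 7.65 and 8.08 CPM in WT and 10.2, 8.32 and 6.80 CPM in LSD1-mKO, so that replicate 1 was the highest mouse of each genotype. The log2 fold changes were -0.01 for Asns (interval -0.57 to 0.54), 0.23 for Phgdh (-0.27 to 0.73, and 0.06 without WT replicate 1 or 0.39 without WT replicate 2) and -0.03 for Psat1 (-0.48 to 0.42). A pseudogene of Phgdh is annotated elsewhere in the genome, a processed pseudogene, Gm3329, overlaps Psat1 on the other strand, and reads shared with either are uncertain.

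Chac1 encodes an enzyme that breaks down glutathione and is induced downstream of ATF4, and its gene lies at chr2:119351229-119354381 (plus strand). Its levels were 64.1, 39.3 and 64.9 CPM in WT and 20.6, 40.7 and 16.7 CPM in LSD1-mKO. Of the WT mice 2 stood above every LSD1-mKO mouse, of the LSD1-mKO mice 2 stood below every WT mouse, and replicate 2 of each genotype met in the middle. The log2 fold change was -1.10 ± 0.33 SE with a 95% interval from -1.85 to -0.35, but the unadjusted p of 0.00932, in the lowest 1.54% of all genes, became an adjusted p of 0.607 with edgeR. An exact permutation test of the mean CPM, 2-sided, gave p = 0.2, where 3 mice against 3 cannot give less than 0.1. The estimate moved with single mice: it was -1.58 without LSD1-mKO replicate 2, where the groups no longer overlapped, and -0.87 without LSD1-mKO replicate 3. Chac1 also varied more within genotypes than genes of a similar level, with an SD of log2 CPM of 0.41 in WT and 0.66 in LSD1-mKO, larger than in 94.2% and 99.5% of 2207 such genes. The part of fibroblasts and immune cells in these levels was not tested.

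**Figure D2:**
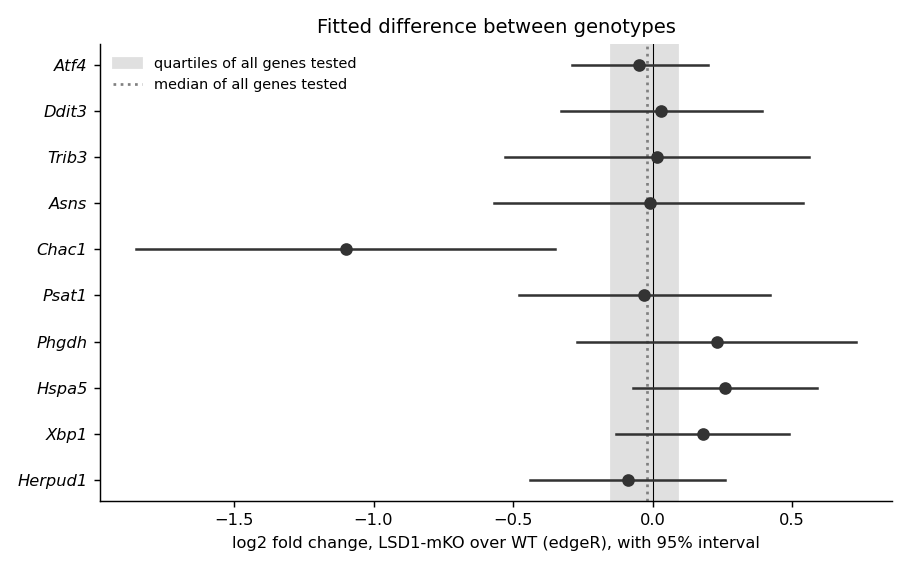
Fitted log2 fold change, LSD1-mKO over WT (x axis), of the 10 genes with the 95% interval from edgeR; the grey band is the range between the quartiles of all 12828 genes (-0.15 to 0.09) and the dotted line their median (-0.02). Only the interval of Chac1, from -1.85 to -0.35, leaves out 0.

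Of the UPR genes proper, Hspa5 had the largest fitted difference. Hspa5 encodes BiP, the main ER chaperone, which holds the stress sensors inactive in unstressed cells (chr2:34771970-34777547, plus strand). It was at 181, 189 and 209 CPM in WT and at 272, 182 and 241 CPM in LSD1-mKO. LSD1-mKO replicates 1 and 3 stood above the 3 WT mice, while LSD1-mKO replicate 2 lay within the WT range, and the log2 fold change was 0.26 with an interval from -0.07 to 0.59 (edgeR, adjusted p = 0.777). Without LSD1-mKO replicate 2 the difference was 0.42 with an unadjusted p of 0.00847, and without LSD1-mKO replicate 1 it was 0.13.

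Xbp1 encodes the transcription factor of the IRE1 branch (chr11:5520659-5525893, plus strand), and spliced and unspliced forms are summed in its count. It was at 47.7, 50.3 and 65.6 CPM in WT and at 69.1, 59.4 and 57.4 CPM in LSD1-mKO. WT replicate 3 lay among the LSD1-mKO mice, and the log2 fold change was 0.18 (interval -0.13 to 0.49). Without that mouse it was 0.34 (edgeR, unadjusted p = 0.0224, adjusted p = 0.996). The log2 fold change of Xbp1 was 0.097 without LSD1-mKO replicate 1 and 0.099 without WT replicate 1. Herpud1, an ER membrane protein that helps degrade misfolded proteins (chr8:94386438-94395377, plus strand), was at 162, 140.4 and 136 CPM in WT and at 108, 166 and 138 CPM in LSD1-mKO. The lowest and the highest of the 6 mice were both LSD1-mKO, and the log2 fold change was -0.09 (interval -0.44 to 0.26). An antisense transcript, Gm15890, overlaps its start at chr8:94386438-94386972.

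The spread within LSD1-mKO was wide for both abundant ER stress genes. The SD of log2 CPM in LSD1-mKO was 0.30 for Hspa5 and 0.31 for Herpud1, larger than in 93.6% and 94.5% of genes of a similar level. In WT it was 0.11 and 0.14, larger than in 37.4% and 57.5%. The mouse with the most Hspa5, LSD1-mKO replicate 1, had the least Herpud1, and the mouse with the most Herpud1, LSD1-mKO replicate 2, had nearly the least Hspa5. Across the 6 mice Hspa5 and Herpud1 ran opposite to each other on the log2 scale (Pearson r = -0.89, exact permutation p = 0.0083; Spearman rho = -0.89, exact permutation p = 0.033). The r was -0.86 without the 2 mice farthest from the median of Hspa5 and -0.93 after each genotype was centred on its own mean. This was 1 of 45 pairs among the 10 genes. After Benjamini-Hochberg adjustment over the 45 pairs its exact permutation p was 0.375 for Pearson and 0.75 for Spearman. With the 720 orders of 6 mice, no pair could pass this adjustment on its own. The adjusted p therefore cannot decide whether the opposite course of Hspa5 and Herpud1 goes beyond these 6 mice.

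**Figure D3:**
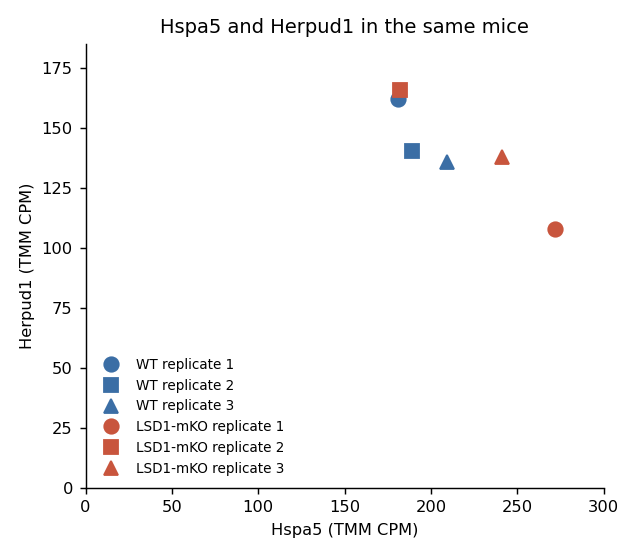
Herpud1 (y axis, TMM CPM) against Hspa5 (x axis, TMM CPM) in the same 6 mice, both axes from 0, with WT in blue and LSD1-mKO in red. Herpud1 falls from 166 to 108 CPM as Hspa5 goes from 182 to 272 CPM within LSD1-mKO, and from 162 to 136 CPM as Hspa5 goes from 181 to 209 CPM within WT.

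The other pairs pointed both ways. Of the 45 pairs 25 had r above 0 and 20 below 0, with a median of 0.03. After adjustment 0 passed, which no pair could do on its own. Ddit3 and Trib3 had r = 0.81 (exact permutation p = 0.046, adjusted p = 0.812) and rho = 0.89 (exact permutation p = 0.033, adjusted p = 0.75), with r = 0.70 without the 2 mice farthest from the median. Atf4 itself had r = 0.59 with Chac1 (exact permutation p = 0.192, adjusted p = 0.938) and rho = 0.83 (exact permutation p = 0.058, adjusted p = 0.875), with r = 0.86 without the 2 farthest mice. With the amino acid genes Atf4 pointed both ways, at r = 0.65 for Psat1, -0.59 for Asns and -0.51 for Phgdh. Without the same 2 mice these were -0.12, -0.77 and -0.68.

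Among 10210 genes with a mean of at least 5 CPM, the genes whose log2 CPM over the 6 mice was most like that of Atf4 were Eif2s2 (r = 0.996), Rqcd1 (0.982) and Plekhh1 (0.981). For Hspa5 they were Prkag2 (r = 0.997), Stk24 (0.985) and Vipas39 (0.983). Of the 10210 genes, 15 (0.147%) exceeded an r of 0.95 with Atf4 and 12 (0.118%) with Hspa5. The genes named were picked as the highest of these many correlations over only 6 mice. How many would exceed 0.95 by chance was not tested, so the names do not mark partners of Atf4 or Hspa5.

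The rest of the pathway was read from 8 lists of 111 genes by role, of which 105 were tested. Of these 0 passed the adjusted threshold with edgeR, DESeq2 or limma voom, where edgeR called 0.0156% of all genes tested. In edgeR 3 had an unadjusted p under 0.05, all lower (2.86% against 6.4% of all genes). Free of overlap were 2 higher and 5 lower ones (6.67% against 12.7%). The median log2 fold change was -0.03 against -0.02 for all genes.

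Upstream, 12 genes for eIF2, its kinases, its phosphatase and its exchange factor had a median of -0.02. Ppp1r15b, the constitutive partner of the phosphatase that resets eIF2, was at 40.9, 43.0 and 45.9 CPM in WT and 39.3, 37.2 and 34.7 CPM in LSD1-mKO, with each LSD1-mKO mouse below each WT mouse (log2 fold change -0.22 ± 0.09 SE, unadjusted p = 0.0386, edgeR adjusted p = 0.749). Eif2b2, a subunit of the exchange factor eIF2B, showed the same order (39.3, 38.9 and 36.5 CPM in WT against 31.5, 34.7 and 33.6 CPM in LSD1-mKO, log2 fold change -0.20, unadjusted p = 0.0481 in edgeR). With DESeq2 the unadjusted p was 0.105 for Ppp1r15b and 0.152 for Eif2b2. In edgeR with a mouse left out it ran from 0.024 to 0.13 for Ppp1r15b and from 0.052 to 0.152 for Eif2b2. Eif2s1, the phosphorylated subunit itself, was 53.6 to 54.7 CPM in WT and 56.7 to 59.3 CPM in LSD1-mKO, higher in each LSD1-mKO mouse, with a log2 fold change of 0.10 (interval -0.07 to 0.28).

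In the list of other bZIP factors and stress effectors of the ATF4 arm, 11 of 13 tested genes (84.6%) had a fitted log2 fold change below 0, against 54.8% of all genes tested, and the median was -0.16. In edgeR none of the 13 had an unadjusted p under 0.05 and none was free of overlap. Fgf21 and Gdf15 also belong to this list of 15 genes but were below the expression filter. Gdf15 was higher in each LSD1-mKO mouse than in each WT mouse and is described further below. Ddit4, an inhibitor of mTORC1, was at 226, 109.6 and 206 CPM in WT and at 83.0, 109 and 161 CPM in LSD1-mKO (log2 fold change -0.62, interval -1.31 to 0.07, unadjusted p = 0.073). With DESeq2 its unadjusted p was 0.0258 and with no filter 0.029, and with each mouse left out in turn the log2 fold change ran from -0.91 to -0.42. Cebpb, a partner of ATF4, was at 209, 152 and 213 CPM in WT and at 126, 159 and 176 CPM in LSD1-mKO (-0.31, interval -0.69 to 0.06), and its log2 fold change was -0.18 without LSD1-mKO replicate 1. In both genes, as in Chac1, WT replicate 2 was the lowest WT mouse. This order was not general to the list: WT replicate 2 was the lowest WT mouse in 6 of the 13 genes and the highest in 2, against 30.1% and 32.0% of all genes tested.

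Of the amino acid transport and one-carbon genes 15 were tested, with a median of -0.03. Slc1a5, the glutamine transporter ASCT2, was the most uniform difference: 55.9, 54.0 and 54.1 CPM in WT against 44.6, 47.0 and 44.3 CPM in LSD1-mKO. This gave a log2 fold change of -0.27 ± 0.08 SE (unadjusted p = 0.00818, edgeR adjusted p = 0.578), and it stayed between -0.29 and -0.25 when each mouse was left out in turn. Pck2, the mitochondrial PEP carboxykinase, was also lower in each LSD1-mKO mouse (11.2, 14.5 and 12.9 CPM against 10.8, 10.6 and 10.1 CPM, log2 fold change -0.30, unadjusted p = 0.0587). The 12 cytosolic tRNA synthetases had a median of 0.02, with Aars at -0.23 (interval -0.47 to 0.00) and Iars at 0.06 (interval -0.14 to 0.27).

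On the ER side 0 of the genes had an unadjusted p under 0.05. The 9 ER stress sensors and proteases had a median of -0.16, with Atf6b at -0.23 (interval -0.56 to 0.09) and Mbtps1, a protease that cuts ATF6, at -0.16 (interval -0.40 to 0.08). The 20 ER chaperones and foldases had a median of -0.0011 and 10 genes on each side of 0. Canx, the lectin chaperone calnexin, was higher in each LSD1-mKO mouse, at 173 to 177 CPM in WT and 189.6 to 198 CPM in LSD1-mKO (log2 fold change 0.15, interval -0.02 to 0.32). Ppib, a prolyl isomerase of collagen folding, was at 36.2, 51.0 and 52.3 CPM in WT and at 46.4, 35.1 and 36.6 CPM in LSD1-mKO. Its 3 high mice, WT replicates 2 and 3 and LSD1-mKO replicate 1, were also the 3 highest for the fibroblast and the immune marker sums, and the part of those cells in the level was not tested. The 17 genes of ER-associated degradation and translocation had a median of -0.05, with Ubxn4 at 0.16 and Ube2j1 at -0.17, and the 8 genes of the mitochondrial stress route a median of 0.05, with Hspd1 at 0.20 (0.10 without LSD1-mKO replicate 3, 0.30 without WT replicate 1) and Yme1l1 at 0.10.

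**Figure D4:**
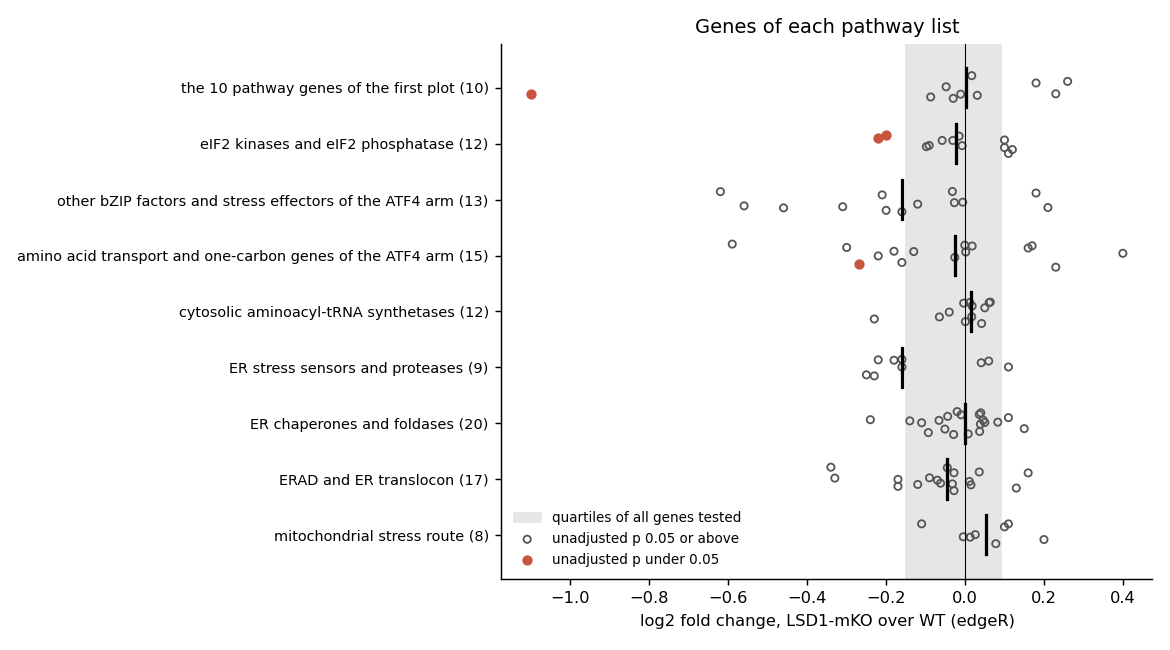
Fitted log2 fold change, LSD1-mKO over WT (x axis), of the tested genes of each list, with the number tested in brackets; the short line is the list's median, filled points have an unadjusted p under 0.05 and the grey band spans the quartiles of all genes. The 4 filled points, Chac1, Ppp1r15b, Eif2b2 and Slc1a5, are all below 0.

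The secreted stress factors of the ATF4 arm were scarce. Fgf21 had 0 counts in the 6 libraries, where a count of 0 allows up to 3 counts in a library, counting error only. Gdf15, which is below the expression filter and was singled out after its values were seen, had 2, 4 and 5 counts in WT and 20, 12 and 20 counts in LSD1-mKO, or 0.241, 0.36 and 0.444 CPM against 1.48, 0.869 and 1.86 CPM. Each LSD1-mKO mouse was above each WT mouse, and the ratio of the summed counts per library total was 3.73, with an exact interval from 1.93 to 7.94 that covers counting error only. In edgeR without the filter its log2 fold change was 1.95 ± 0.52 SE with an unadjusted p of 0.00226 and an adjusted p of 0.338 over 18840 genes.

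Which mouse stood lowest or highest differed from list to list. Among the 20 ER chaperones and foldases, WT replicate 1 was the lowest of the 6 mice in 9 genes (45.0%, against 23.3% of all genes tested) and LSD1-mKO replicate 1 the highest in 9 (45.0%, against 12.8%). Among the 12 tRNA synthetases WT replicate 1 was instead the highest in 8 genes (66.7%, against 23.4%) and WT replicate 3 the lowest in 6 (against 16.5% of all genes). The 8 genes of the mitochondrial stress route followed the synthetases, with WT replicate 1 highest in 5 and WT replicate 3 lowest in 5. Genes of a list share mice and depth, and these counts describe the 6 libraries only.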

How the data were processed

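Poly(A) RNA of Sol muscle from 3 WT and 3 LSD1-mKO mice after VWR was read as 75-base single-end reads, which the authors aligned to mm10 with STAR. The authors deposited estimated counts per gene, not normalized, of which 8.33 to 9.94% per library are not whole. The counting tool, annotation and strand setting are not given in the sources used here. A deposited table of the authors' own DESeq2 comparison (fold change, standard error and p-values) was not used. Columns were matched to mice by the numbers in their headings.

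After rounding, the genotypes were compared with edgeR 4.0.16 in R 4.3.3 (TMM, filterByExpr by genotype, quasi-likelihood test, Benjamini-Hochberg adjustment over 12828 genes, threshold 0.05). The edgeR step was tested on simulated data. DESeq2 1.42.0, limma 3.58.1 (voom), other scalings and filters, the replicate number as a block and leaving out each mouse were alternatives. TPM used GENCODE vM21 lengths, and correlations took log2 of CPM plus 0.5. Symbols altered by a spreadsheet into dates were kept as listed. Libraries of a genotype differed by a chi-square of at least 9.97 per gene, far above sampling noise. Reads after PCR are not separate molecules, and floors and intervals from counts therefore cover counting error only.

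The 10 genes and the lists were chosen with earlier results of these data known. Named are the 10 genes, Kdm1a, the 2 genes of each list with the smallest unadjusted p and a mean of at least 1 CPM, and the 3 genes most like Atf4 and Hspa5. Esr1, Eif2s1, Fgf21 and Gdf15 fall outside this rule and were chosen after their values were seen. Promoter windows of 300 bases were matched by symbol for 10 of 10 genes.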

Additional observations from a re-analysis of the deposited data

How the results depend on the processing

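The 10 genes gave 140 values of log2 fold change under the alternatives, of which 124 kept their direction and 16 turned. The turns were in genes close to 0. With a mouse left out, Atf4 ran from -0.14 to 0.006 (0.0034 without LSD1-mKO replicate 3), Ddit3 from -0.10 to 0.14 (-0.075), Trib3 from -0.10 to 0.16 (-0.042, -0.015), Asns from -0.13 to 0.15 (0.022, 0.039), Psat1 from -0.19 to 0.11 (0.099) and Herpud1 from -0.24 to 0.059. Ddit3 was -0.00033 and Trib3 -0.01 with library size alone, and Asns 0.0063 with no filter. Chac1 stayed lower with an unadjusted p under 0.05 in every alternative run, and its adjusted p ran from 0.0653 with DESeq2 to 0.998. With 1 mouse left out, the count of the 10 genes with an unadjusted p under 0.05 and higher was 0 to 1 (Xbp1 without WT replicate 3, Hspa5 without LSD1-mKO replicate 2). The count free of overlap was 0 to 1 higher (Phgdh, Xbp1 or Hspa5) and 0 to 2 lower (Chac1 and Atf4 without WT replicate 2, Chac1 without LSD1-mKO replicate 2), and 1 lower, Chac1, with library size alone. Of the 16 genes named from the lists by rule, all kept their direction with a mouse left out, and 8 moved by over 1.5 times: Cebpb, Aars, Iars, Atf6b, Mbtps1, Ppib, Ube2j1 and Hspd1.

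Over all genes, DESeq2 called 33 higher and 9 lower, and voom 2 higher and 1 lower. The fit with no filter called 8 higher and 3 lower. With a mouse left out 1 to 2 were higher (2 without WT replicate 1) and 0 to 1 lower. With the replicate block 0 were called lower, and Kdm1a was -1.23 with an adjusted p of 0.299. Same-numbered mice did not deviate together from the mean of their genotype, with r of -0.352, -0.107 and -0.15. With deviations centred on 3 mice per genotype, this cannot decide whether the numbers mark pairs. With exon-union length, mean TPM was 54.7 for Ddit3, 4.54 for Trib3, 157 for Hspa5 and 189 for Herpud1. These TPM values come from the same counts and differ from the earlier ones only through the lengths used. The cause of the other shifts was not tested. With 3 mice per genotype, the intervals of Trib3 and Asns, the genes with the fewest counts, run past 0.5 on both sides of 0.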
